A study of Macaca mulatta with 12 samples.

Results

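The miR-200 family is a set of miRNAs that lie in the genome as 2 clusters, mml-mir-200a, mml-mir-200b and mml-mir-429 in one and mml-mir-200c and mml-mir-141 in the other. The members were chosen by name from the list of pre-miRNAs (the hairpins from which mature miRNAs are cut) of the rhesus macaque, Macaca mulatta. A hairpin sequence was at hand for 4 of the 5 members, mml-mir-200a, mml-mir-429, mml-mir-200c and mml-mir-141, out of 832 hairpins in all, while mml-mir-200b was not analysed here. The 4 hairpins give 8 mature miRNAs, 1 from each arm, among 1219 different mature sequences. Small RNAs were sequenced in 12 profiles of 8 tissues from untreated wild type animals, all labelled with an age of 36 months. Kidney, small intestine, large intestine and muscle had 2 profiles each, and lung, liver, occipital lobe (a part of the cerebral cortex) and spinal cord had 1 profile each. All profiles came from 2 animals, and the sample labels do not say which profile came from which. Tissues therefore share animals, and p-values measure the spread between profiles or tissues and not that between animals.

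Members of this family are known as marks of epithelial cells, the cells that line tubules, mucosa and airways. In these cells they repress the mRNAs of ZEB1 and ZEB2, transcription factors that silence E-cadherin, and the loss of the family accompanies the change of epithelial into mesenchymal cells. A mature miRNA finds its target mRNAs mainly by its seed, bases 2 to 8 counted from its 5' end, so that the first base of a mature miRNA decides which mRNAs it can bind.

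The 3p arms of the 4 hairpins gave most of the reads. The most abundant read on each 3p arm is given here, because these sequences set the seeds and show how close the members are, with the seed in capitals.
mml-miR-200a-3p: uAACACUGucugguaacgaug
mml-miR-141-3p: uAACACUGucugguaaagaug
mml-miR-429-3p: uAAUACUGucugguaaaaccg
mml-miR-200c-3p: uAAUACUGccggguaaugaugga
The reads of mml-miR-200a-3p and mml-miR-141-3p shared the seed AACACUG and differed at 1 of 21 bases, C17A, counted from 1 at the 5' end of the read with the base of mml-miR-200a-3p first. The reads of mml-miR-429-3p and mml-miR-200c-3p shared the seed AAUACUG, which differs from the other seed only by C4U, and they differed from each other at 6 of 21 bases, all outside the seed. Each cluster therefore held both seeds, mml-mir-200a and mml-mir-429 in one and mml-mir-141 and mml-mir-200c in the other.

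In the assembly Mmul_8.0.1, mml-mir-200a was placed at 259981 to 260070 and mml-mir-429 at 261052 to 261134 on the plus strand of chromosome 1, with 981 bases between the 2 hairpins. On the plus strand of chromosome 11, mml-mir-200c was placed at 7280477 to 7280544 and mml-mir-141 at 7280874 to 7280968, with 329 bases between them. In a RefSeq annotation of another assembly, used for names only, none of the 4 hairpins lay within a protein-coding gene. There TTLL10 was the nearest protein-coding gene on one side of the chromosome 1 cluster, and PTPN6 and PHB2 flanked the chromosome 11 cluster.

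The deposited counts of a profile added up to 22118095 to 25579064 valid reads, and 36.84% to 69.32% of them matched a hairpin over their whole length. Levels are given as RPTM, reads per 10000000 valid reads, from exact reads with both ends within 2 bases of the annotated mature miRNA. A single read stood for 0.39 to 0.45 RPTM. These are levels in whole pieces of tissue, so that fewer epithelial cells and less of the miRNA per epithelial cell cannot be told apart.

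mml-miR-141-3p was the most abundant member by exact reads over all profiles. Its level was 2307 and 869 RPTM in kidney 1 and 2, 7970 and 4117 RPTM in small intestine 1 and 2, 6120 and 2245 RPTM in large intestine 1 and 2, and 9354 RPTM in lung. It was 423 RPTM in liver, 137 and 33.6 RPTM in muscle 1 and 2, and 21.3 and 8.78 RPTM in the occipital lobe and the spinal cord. Every profile of kidney, intestine and lung was above liver, and liver was above every profile of muscle and nervous tissue. mml-miR-429-3p, of the other cluster, had 1508 and 954 RPTM in kidney, 2479 and 1495 RPTM in small intestine, 3185 and 1150 RPTM in large intestine and 840 RPTM in lung. It had 168 RPTM in liver, 26.7 and 16.1 RPTM in muscle, and 1.30 and 1.25 RPTM in the occipital lobe and the spinal cord, where each value rested on 3 reads. The order of the tissues was led by the intestine here, whereas mml-miR-141-3p was led by lung.

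mml-miR-200a-3p had 690.0 and 413 RPTM in kidney, 794 and 446 RPTM in small intestine, 776 and 263 RPTM in large intestine and 344 RPTM in lung. Outside these tissues it had 78.3 RPTM in liver, 11.7 and 3.05 RPTM in muscle, and 1.30 and 1.25 RPTM in occipital lobe and spinal cord. Its mean levels in the 3 epithelial tissues with 2 profiles, 551 RPTM in kidney, 620.0 RPTM in small intestine and 519 RPTM in large intestine, lay closer together than those of any other 3p arm. Counted by exact reads, mml-miR-200c-3p was much rarer than mml-miR-141-3p, its neighbour in the genome. It had 36.4 and 14.1 RPTM in kidney, 175 and 141.3 RPTM in small intestine, 169 and 70.6 RPTM in large intestine and 75.2 RPTM in lung. Muscle had 3.76 and 4.36 RPTM, and no exact read lay on this arm in occipital lobe or spinal cord, which allows up to 1.30 and 1.25 RPTM there. In liver no read met the rule for ends, but 12 exact reads that stopped short of the annotated 3' end by more than 2 bases lay on the arm. Counted with any exact read on the arm, liver had 4.84 RPTM, and small intestine was 37.7-fold, large intestine 26.9-fold, lung 18.3-fold and kidney 5.99-fold above it. Floors and intervals here cover counting error only.

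The 5p arms were rare. mml-miR-200a-5p had 36.4 RPTM in both kidney profiles, 63.0 and 78.0 RPTM in small intestine, 177 and 66.3 RPTM in large intestine, 17.9 RPTM in lung, 12.1 RPTM in liver and at most 1.25 RPTM in muscle and nervous tissue. mml-miR-141-5p had 15.3 and 6.20 RPTM in kidney, 83.1 and 74.2 RPTM in small intestine, 99.01 and 54.4 RPTM in large intestine, 34.1 RPTM in lung, 2.02 RPTM in liver and at most 0.83 RPTM elsewhere. The 5p arms of mml-mir-429 and mml-mir-200c had 2 reads each over all 12 profiles, and these 2 arms did not pass the filter on low values, so that 6 of the 8 mature miRNAs were tested. In a plot of the 6 tested arms by profile, the profiles of kidney, intestine and lung stand together at the top.

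**Figure D1:**
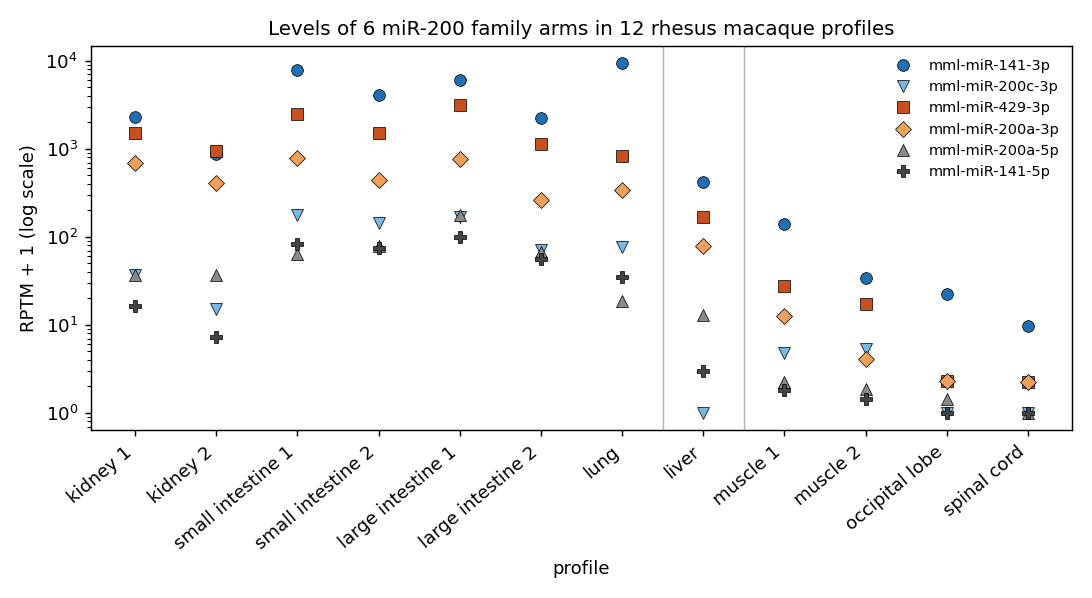
Levels of the 6 tested arms in each of the 12 profiles, as RPTM + 1 on a log axis, with one symbol for each arm and vertical lines that set liver apart. mml-miR-141-3p sits between 869 and 9354 RPTM in kidney, intestine and lung and at 8.78 to 137 RPTM in muscle and nervous tissue.

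The paired profiles differed by more than counting error. For mml-miR-141-3p, mml-miR-429-3p, mml-miR-200a-3p and mml-miR-141-5p the profile numbered 1 was higher than the profile numbered 2 in each of kidney, small intestine, large intestine and muscle. Not all arms did so. The ratio of profile 1 to profile 2 was 0.86 for mml-miR-200c-3p in muscle. For mml-miR-200a-5p it was 0.81 in small intestine, and its kidney profiles were about equal. In large intestine the ratio was 2.73 for mml-miR-141-3p, 2.77 for mml-miR-429-3p and 2.95 for mml-miR-200a-3p, while the median ratio over the 371 tested miRNAs was 1.035. In kidney these ratios were 2.66, 1.58 and 1.67, against a median of 1.29. The large intestine profiles therefore differed in the family as a whole.

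To compare epithelial with non-epithelial tissues, the mean of kidney, small intestine, large intestine and lung was set against the mean of muscle, occipital lobe and spinal cord, with liver in the fit but outside the contrast. Hepatocytes are epithelial cells by origin but do not line a surface, so that liver could be put on either side. All 6 tested arms of the family were higher in the epithelial tissues (edgeR's quasi-likelihood test, Benjamini-Hochberg adjusted over 371 miRNAs), and 87 of all 371 miRNAs, or 23.5%, were higher while 151 were lower. mml-miR-429-3p was higher by 9.63 on the log2 scale (SE 0.55, adjusted p = 2.1e-08), mml-miR-200c-3p by 8.73 (SE 0.64, adjusted p = 1.8e-07), mml-miR-200a-3p by 8.59 (SE 0.65, adjusted p = 2.2e-07) and mml-miR-141-3p by 8.33 (SE 0.68, adjusted p = 4.1e-07). Of the 5p arms, mml-miR-141-5p was higher by 8.58 (SE 0.65, adjusted p = 2.3e-07) and mml-miR-200a-5p by 7.83 (SE 0.61, adjusted p = 2.6e-07). These 6 fold changes held ranks 1 to 6 among the 371, with a median of 8.59 for the members and -0.59 for all miRNAs. The arms passed the filter on low values through their levels in the epithelial tissues, so that the count of arms called carries no weight beside the folds themselves.

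The fitted folds of mml-miR-200c-3p, mml-miR-200a-5p and mml-miR-141-5p depend on the small count that edgeR adds, because occipital lobe and spinal cord had no read of mml-miR-200c-3p or mml-miR-141-5p and spinal cord had none of mml-miR-200a-5p. As plain ratios of the mean RPTM over tissues, the epithelial tissues were 69.9-fold higher for mml-miR-200c-3p, 123.5-fold for mml-miR-200a-5p, 138-fold for mml-miR-141-3p, 154-fold for mml-miR-200a-3p, 195-fold for mml-miR-429-3p and 236-fold for mml-miR-141-5p. With the valid reads in place of edgeR's TMM scaling, 58 miRNAs were higher and 231 lower and the median over all miRNAs moved to -1.52, with the 6 members still in ranks 1 to 6. In the 8 numbered profiles, which leave out lung and set kidney and intestine against muscle alone, the members were all called higher but held ranks between 4 and 14 of 371, with a median of 6.43.

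Tissues, rather than profiles, were then taken as the units, with the mean of each tissue as a single value and limma's moderated test on 4 epithelial and 3 non-epithelial tissues, although tissues of the same animals are not independent. In this test 6 of the 371 miRNAs, or 1.62%, were higher in the epithelial tissues, and these 6 were the 6 tested arms of the family. The limit of the filter holds for this count as well, and the 5p arms of mml-mir-429 and mml-mir-200c did not enter it. Their adjusted p from limma ran from 0.0016 for mml-miR-429-3p and mml-miR-200a-3p to 0.014 for mml-miR-141-5p, with differences of 5.04 to 8.17 on the log2(RPTM + 1) scale. In RPTM, without a model, all 7 epithelial profiles were above all 4 non-epithelial profiles for 8 of the 371 miRNAs, or 2.16%. These were the 6 arms of the family, mml-miR-10a-3p and mml-miR-146a-5p. Here too the family arms had passed the filter through their epithelial levels, so that their count carries no weight. The lowest epithelial profile was 31.4-fold above the highest non-epithelial profile for mml-miR-429-3p and 3.23-fold for mml-miR-200c-3p, against 2.19-fold for mml-miR-10a-3p and 1.21-fold for mml-miR-146a-5p.

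**Figure D2:**
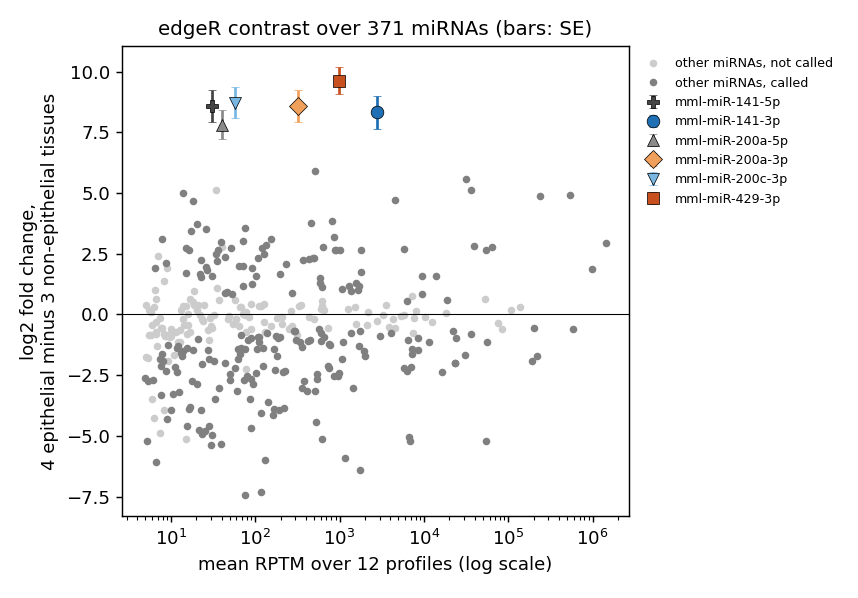
Log2 fold change between 4 epithelial and 3 non-epithelial tissues (vertical axis) against the mean RPTM over 12 profiles (log axis) for 371 miRNAs, with the standard error drawn for the 6 arms of the family. The 6 arms lie between 7.83 and 9.63, above all other miRNAs.

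Other miRNAs known from epithelial cells had smaller fold changes in this contrast. Of 10 listed ones, 8 were higher in the same edgeR contrast, with a median of 3.86 on the log2 scale over the list, and 1, mml-miR-31-5p, was lower (log2 fold change -1.25, adjusted p = 0.0091). mml-miR-203-3p, known from stratified epithelium, had the largest fold change of the list (log2 fold change 5.89, SE 0.58, adjusted p = 2.5e-06), yet its epithelial profiles began at 18.2 RPTM and muscle 1 reached 52.2 RPTM. mml-miR-192-5p, an abundant miRNA of gut and liver, was higher by 4.94 (SE 0.37, adjusted p = 1.9e-07), although the lowest epithelial profile, at 4096 RPTM, was below occipital lobe at 28860 RPTM.

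Markers of the other cell types in these tissues moved as well, and their part in the results on the family was not tested. Of 6 skeletal muscle miRNAs 5 were lower in the epithelial tissues and none was higher, with a summed level of 137200 and 158200 RPTM in the muscle profiles and 76.9 to 944 RPTM in the epithelial ones, where mml-miR-206-3p and mml-miR-208b-3p were at 0 in at least 1 profile. All 5 nervous tissue miRNAs were lower, with sums of 446700 and 315300 RPTM in occipital lobe and spinal cord and 512 to 1378 RPTM in the epithelial profiles. The smooth muscle miRNAs mml-miR-143-3p and mml-miR-145-3p were both higher, with sums of 323000 to 3570000 RPTM in the epithelial and 103100 to 946800 RPTM in the non-epithelial profiles. The endothelial mml-miR-126-3p was called higher by 1.03 on the log2 scale, but only lung, at 9051 RPTM, was above all non-epithelial profiles. Its intestinal profiles, at 325 to 444 RPTM, were below every non-epithelial profile (493 to 2049 RPTM). Kidney, at 1268 and 940 RPTM, was below muscle, at 1769 and 2049 RPTM. Of 6 blood and immune miRNAs 3 were higher (mml-miR-142-5p, mml-miR-223-3p and mml-miR-150-5p), 1 was lower (mml-miR-486-5p) and 2 were not called (mml-miR-451-5p and mml-miR-144-3p). Their sums were 10850 to 276900 RPTM in the epithelial and 173000 to 823700 RPTM in the non-epithelial profiles. Most of each sum was mml-miR-486-5p, with 265100 RPTM in lung and 815700 RPTM in muscle 2. The hepatocyte miRNA mml-miR-122a-5p was at 7320 RPTM in liver and at 1.23 to 4.37 RPTM in the epithelial and 1.31 to 3.76 RPTM in the non-epithelial profiles. It was called higher in the epithelial tissues all the same (log2 fold change 1.13, adjusted p = 0.037 by edgeR). The ranges of the epithelial and non-epithelial profiles overlapped, and these values rested on few reads. The fold also carries the TMM factors, which ran from 0.56 in large intestine 2 to 2.35 in spinal cord. In muscle and nervous tissue the miRNAs of the tissue's own list were thus abundant.

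Liver lay between the 2 groups. All 6 arms were higher in small intestine than in liver (17.5% of all miRNAs were higher in that comparison), all 6 in large intestine (18.1%), 5 in kidney (13.7%) and 3 in lung (10.8%). The arm not called in kidney was mml-miR-141-3p (log2 fold change 2.26, SE 0.86, adjusted p = 0.077), and those called in lung were both arms of mml-mir-141 and mml-miR-200c-3p. With the valid reads as library size, 3 arms were called in kidney, where mml-miR-141-5p (adjusted p = 0.080 by edgeR) and mml-miR-200a-5p (0.13) were lost, and 4 in lung, where mml-miR-429-3p was gained (0.045). The count in kidney was also 2 without kidney 1, and 3 without kidney 2 or small intestine 1. Liver and lung had 1 profile each, whose spread was assumed to be that of the paired tissues. Compared with muscle, liver was higher in mml-miR-141-3p, mml-miR-429-3p and both arms of mml-mir-200a, by 2.19 to 3.36 on the log2 scale, while mml-miR-200c-3p, lower in liver under the rule for ends, did not pass the test by edgeR with any exact read on the arm (log2 fold change 0.054, SE 0.77, adjusted p = 0.99).

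Among the epithelial tissues, several arms were lower in kidney than in intestine. mml-miR-141-3p, mml-miR-141-5p and mml-miR-200c-3p, all of the chromosome 11 cluster, were lower in kidney than in small intestine, by 2.29 (SE 0.66, adjusted p = 0.023), 3.19 (SE 0.54, adjusted p = 0.00080) and 2.98 (SE 0.52, adjusted p = 0.0010) on the log2 scale by edgeR. The 3 arms of the chromosome 1 cluster did not pass the test, with log2 fold changes of -0.48 for mml-miR-200a-3p (SE 0.57, adjusted p = 0.59), -0.99 for mml-miR-429-3p (SE 0.47, adjusted p = 0.14) and -1.19 for mml-miR-200a-5p (SE 0.50, adjusted p = 0.10). Whether the clusters differed in these fold changes was not tested, and 25.3% of all miRNAs differed between these tissues in either direction. Against large intestine, where 21.6% of all miRNAs differed, mml-miR-141-5p fell by 3.203 (SE 0.55, adjusted p = 0.00095), mml-miR-200c-3p fell by 2.61 (SE 0.52, adjusted p = 0.0028) and mml-miR-200a-5p fell by 2.01 (SE 0.51, adjusted p = 0.012). The fold change of mml-miR-141-3p in that comparison was -1.77 (SE 0.64, adjusted p = 0.068), and those of mml-miR-429-3p (-1.13) and mml-miR-200a-3p (-0.23) did not pass either. No arm differed between small and large intestine by edgeR, where 2.7% of all miRNAs did and where no arm had an unadjusted p under 0.05, nor did any by DESeq2.

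The call on mml-miR-141-3p between kidney and small intestine depended on the settings, being kept in 15 of 22 alternatives, always with the same direction. It was kept with DESeq2 (log2 fold change -2.12, adjusted p = 0.0093) and with the replicate number as a block (-1.95, adjusted p = 0.0049 by edgeR), but not in the same 8 profiles without the block (-1.88, adjusted p = 0.065). It was lost with the valid reads as library size (-1.93, adjusted p = 0.070) and without kidney 1 (adjusted p = 0.087), kidney 2 (0.25), small intestine 1 (0.26), large intestine 1 (0.062) or large intestine 2 (0.060), while the log2 fold change stayed between -2.83 and -1.54 whichever profile was left out. Between kidney and large intestine, mml-miR-200c-3p was not called without kidney 2 (adjusted p = 0.069) or large intestine 1 (0.051), nor was mml-miR-200a-5p without kidney 1 (0.12), kidney 2 (0.079) or large intestine 1 (0.17). The calls on mml-miR-141-5p in both comparisons, and on mml-miR-200c-3p against small intestine, held whichever profile was left out. With 1 mismatch and 2 non-templated bases allowed, the log2 fold change of mml-miR-200a-5p between kidney and large intestine was -1.41 (adjusted p = 0.0395 by edgeR).

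**Figure D3:**
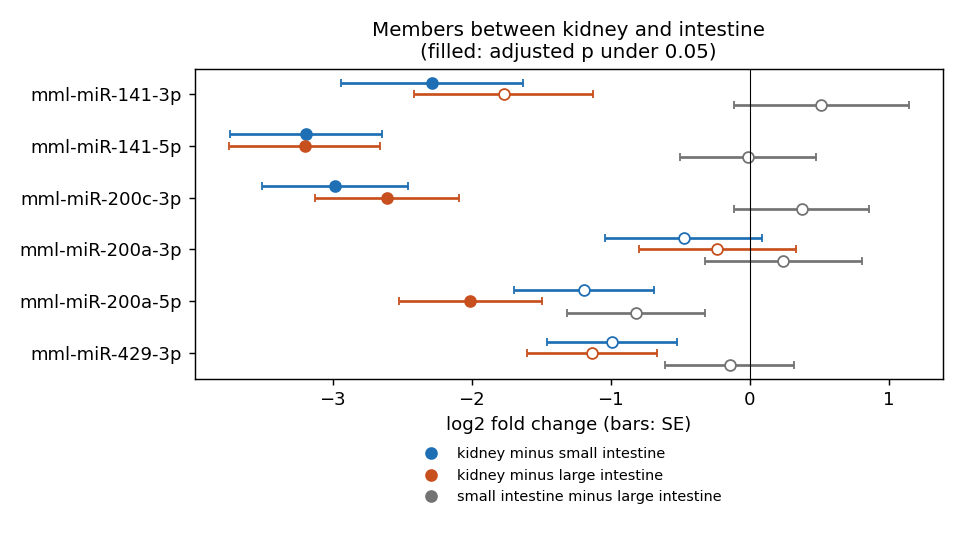
Log2 fold changes with standard errors (horizontal axis) of the 6 arms for kidney minus small intestine, kidney minus large intestine and small intestine minus large intestine, with filled points for an adjusted p under 0.05. mml-miR-141-5p and mml-miR-200c-3p lie between -3.203 and -2.61 in both kidney comparisons, and mml-miR-200a-3p lies between -0.48 and 0.24 in all 3.

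Comparisons with lung depended on the scaling. With TMM, 4 arms were higher in small intestine than in lung (18.6% of all miRNAs differed), 3 in large intestine (20.5%) and none of the 6 differed between kidney and lung (16.2%), where 3 arms had an unadjusted p under 0.05 and 1 arm was called by DESeq2. With the valid reads as library size these counts became 0, 1 and 1. For mml-miR-141-3p even the direction between small intestine and lung turned, from 0.56 with TMM to -0.63 with valid reads, neither called (adjusted p = 0.71 and 0.57). Neighbours at the top of the order of levels therefore could not be separated, which held for lung and small intestine in mml-miR-141-3p and for the pairs of small intestine, large intestine and kidney in mml-miR-429-3p and mml-miR-200a-3p. The first step down that passed the test under both scalings was that from liver to muscle for mml-miR-141-3p, mml-miR-429-3p, mml-miR-200a-3p and mml-miR-200a-5p.

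Shares of reads within a profile need no scaling between profiles. The share of the chromosome 1 cluster, mml-miR-200a-3p and mml-miR-429-3p, among the 3p reads of the 4 members was 48.4% (95% Wilson interval 47.5 to 49.3) and 60.8% (59.5 to 62.1) in kidney 1 and 2. It was 28.7% (28.1 to 29.2) and 31.3% (30.6 to 32.1) in small intestine, 38.6% (38.0 to 39.3) and 37.9% (36.9 to 38.9) in large intestine, and 11.2% (10.8 to 11.6) in lung. Liver had 36.8% (34.5 to 39.2) and muscle 21.4% (17.8 to 25.5) and 33.6% (26.1 to 42.0), while occipital lobe and spinal cord had fewer than 100 reads in all. Among these exact reads, which hold none of mml-mir-200b, the share was highest in kidney and lowest in lung. Both kidney profiles were above all 4 intestinal ones. How reads of mml-mir-200b, a member of this cluster, would change the order was not tested. Kidney had 54.6% ± 8.74 (SD, n = 2) and intestine 34.1% ± 4.91 (SD, n = 4), a difference of -20.5 percentage points for intestine minus kidney (exact permutation test, two-sided p = 0.13, the smallest p that 4 against 2 profiles allow).

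The share of the seed AACACUG, carried by mml-miR-200a-3p and mml-miR-141-3p, was 66.0% and 57.0% in kidney, 76.8% and 73.6% in small intestine, 67.3% in both large intestine profiles and 91.4% in lung. It was 74.9% in liver and 83.0% and 64.1% in muscle. Among these exact reads, which include none of mml-mir-200b and none of the mismatched reads on mml-mir-200c, the seed made up the larger part in each of these 10 profiles. With 1 mismatch and 2 non-templated bases allowed it did so in 5 of the 10, and its share ran from 43.8% in small intestine 2 to 86.5% in lung. Intestine had 71.2% ± 4.74 (SD, n = 4) and kidney 61.5% ± 6.38 (SD, n = 2), again with an exact permutation p of 0.13, the smallest possible, and an adjusted p of 0.13 over the 2 shares. The difference turned when single members were weighted equally (mean log2 ratio -0.75 for intestine minus kidney), a measure in which the rare mml-miR-200c-3p counts as much as mml-miR-141-3p. It was 0.72 percentage points, in place of 9.75, when reads with 1 mismatch and 2 non-templated bases were counted.

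**Figure D4:**
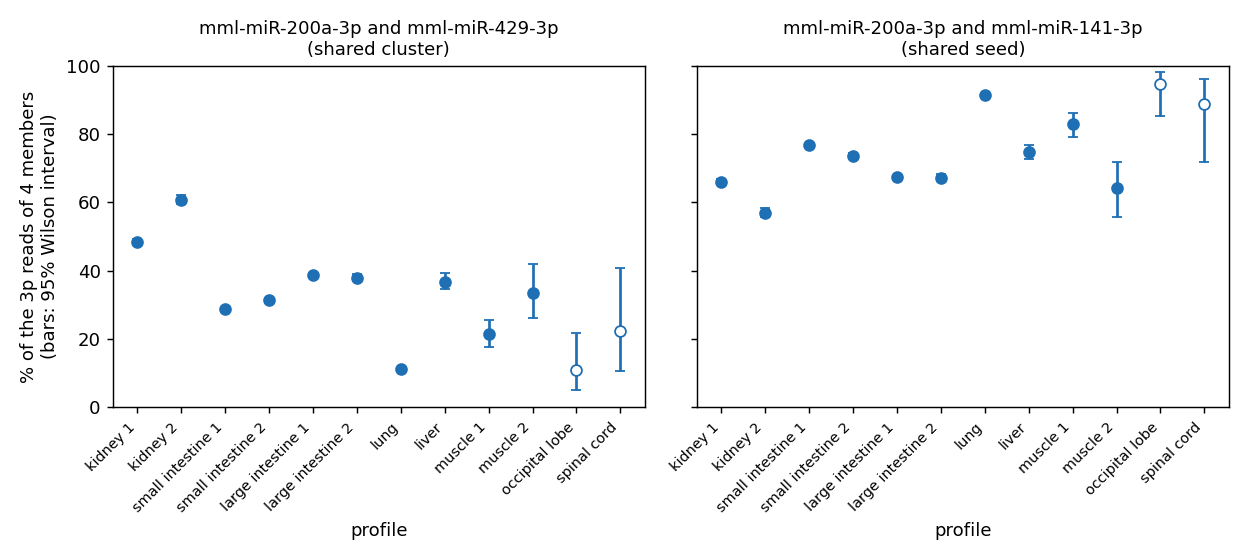
Share of the 3p reads of 4 members, in percent, held by the members of the chromosome 1 cluster (left) and by the members with the seed AACACUG (right) in each profile, with 95% Wilson intervals and open points for profiles with fewer than 100 reads. Left, without mml-mir-200b, kidney is highest at 48.4% and 60.8% and lung is at 11.2%. Right, lung is at 91.4% and kidney 2 at 57.0%.

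Neighbours on the same chromosome did not have equal numbers of exact reads. mml-miR-429-3p was 2.19 and 2.31 times as abundant as mml-miR-200a-3p in kidney, 3.12 and 3.35 times in small intestine, 4.11 and 4.38 times in large intestine, 2.44 times in lung, 2.15 times in liver and 2.29 times in muscle 1. The paired profiles of a tissue lay close together in this ratio, and kidney, small intestine and large intestine did not overlap. mml-miR-141-3p exceeded mml-miR-200c-3p by 63.4 and 61.8 times in kidney, 45.5 and 29.1 times in small intestine, 36.3 and 31.8 times in large intestine, 124.4 times in lung and 7.70 times in muscle 2, the last on 10 reads of mml-miR-200c-3p. Between the clusters, mml-miR-141-3p over mml-miR-200a-3p was 3.34 and 2.10 in kidney, 7.89 to 10.03 in the 4 intestinal profiles and 27.2 in lung. These ratios were not tested, and they are ratios of exact reads, since molecules were not measured. They leave out the mismatched reads on mml-mir-200c, 92.7% of the reads aligned to it with 1 mismatch allowed. If those came from mml-mir-200c, mml-miR-141-3p would exceed mml-miR-200c-3p by less, and their origin was not tested.

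The 5p arm was used to a different extent by each hairpin. It held 11.2% of the 10262 reads assigned to mml-mir-200a, 1.09% of those of mml-mir-141, and 2 of 1622 and 2 of 27966 reads of mml-mir-200c and mml-mir-429. The 5p arm of mml-mir-200a has the seed AUCUUAC and that of mml-mir-141 has AUCUUCC, and their most abundant reads were the following.
mml-miR-200a-5p: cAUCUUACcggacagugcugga
mml-miR-141-5p: cAUCUUCCaguacaguguugga
In mml-mir-200a the 5p share was 5.005% (95% Wilson interval 4.10 to 6.09) and 8.10% (6.62 to 9.87) in kidney 1 and 2, 7.35% (6.31 to 8.55) and 14.9% (13.0 to 17.0) in small intestine, and 18.6% (17.0 to 20.3) and 20.2% (17.5 to 23.1) in large intestine. Lung had 4.95% (3.67 to 6.65) and liver 13.4% (9.55 to 18.5). Large intestine was above kidney and lung with intervals that did not overlap, but the small intestine profiles did not overlap each other either. These shares leave out reads whose last bases do not match the hairpin. Such reads made up 38.06% and 41.77% of mml-miR-200a-5p in kidney and 13.45% and 16.75% in large intestine. For mml-miR-200a-3p they made up 12.93% and 20.23% in kidney and 25.9% and 18.61% in large intestine. The shares with these reads counted were not tested. mml-mir-141 had 0.66% and 0.71% in kidney, 1.03% and 1.77% in small intestine, 1.59% and 2.37% in large intestine, 0.36% in lung and 0.47% in liver. In both hairpins kidney and lung were below the 4 intestinal profiles with the exception of kidney 2 in mml-mir-200a, which was above small intestine 1.

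**Figure D5:**
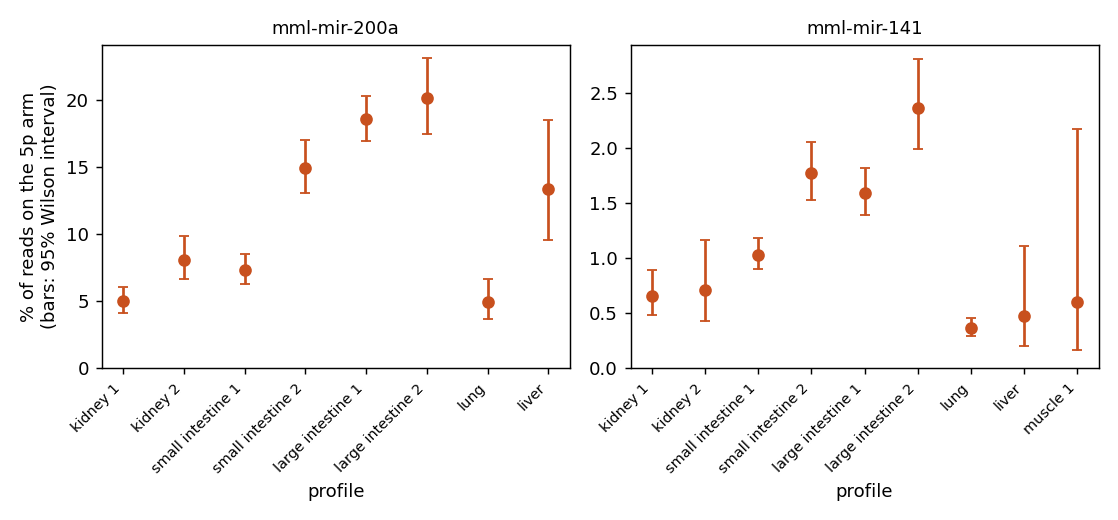
Share of the reads on the 5p arm of mml-mir-200a (left) and mml-mir-141 (right), in percent with 95% Wilson intervals, in the profiles with at least 100 reads on both arms together. mml-mir-200a reaches 18.6% and 20.2% in large intestine and 4.95% in lung, and mml-mir-141 stays between 0.36% and 2.37%.

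The first base of the reads did not match the annotation in the chromosome 11 cluster. The annotated mml-miR-141-3p and mml-miR-200c-3p begin 1 base further along the hairpin than the reads did, and they are shown here because the shift changes the seed.
annotated mml-miR-141-3p: aACACUGUcugguaaagaugg
annotated mml-miR-200c-3p: aAUACUGCcggguaaugaugga
Of 81702 exact reads on the 3p arm of mml-mir-141, 99.4% began 1 base before the annotated start and 26 reads began at it. Over the 9 profiles with at least 100 such reads the share that began 1 base before ran from 99.1% to 100%. Of 1849 exact reads on the 3p arm of mml-mir-200c, 98.0% began 1 base before the annotated start and 0 began at it. No read in any of the 12 profiles was identical to the annotated mml-miR-141-3p or mml-miR-200c-3p. Taken from the annotation the seeds would be ACACUGU and AUACUGC, which no other member has, whereas the seeds of the reads were those of mml-miR-200a-3p and mml-miR-429-3p. The reads of the chromosome 1 cluster began where the annotation does, 99.5% of 9840 reads for mml-miR-200a-3p and 97.9% of 28247 reads for mml-miR-429-3p. The annotation of mml-miR-141-5p also began later than the reads, since 97.0% of its 886 reads began 2 bases before the annotated start.

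The 3' ends were more variable, and differently so in each member. Among reads with the most frequent start, mml-miR-141-3p had 21 bases in 88.3% to 95.3% of reads over 9 profiles, and mml-miR-429-3p had 21 bases in 64.0% to 81.0% and 22 bases in 11.1% to 31.9% over 8 profiles. mml-miR-200c-3p was longer, with 23 bases in 54.7% to 74.2% over 6 profiles. mml-miR-200a-3p was split between 21 bases (19.5% to 55.8% over 8 profiles) and 23 bases (12.5% to 51.8%). The form of 23 bases reached 46.8% and 51.8% in the large intestine profiles, 40.8% and 34.3% in small intestine, 28.3% and 22.7% in kidney, 20.2% in lung and 12.5% in liver. All 4 intestinal profiles were above the 2 kidney profiles, lung and liver in this share.

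Some reads ended in bases that do not match the hairpin, which the study counts as changes of the 3' end. Of 84058 reads of mml-miR-141-3p that matched up to such an end, 2.81% carried 1 or 2 added bases, with 2.53% to 3.93% over 9 profiles, while the median over 270 miRNAs with at least 1000 reads was 25%, and 1.48% of these miRNAs had a lower share. For mml-miR-429-3p the share was 14.5%, for mml-miR-200a-3p 18.4% and for mml-miR-200c-3p 26.4%. In mml-miR-200a-3p and mml-miR-429-3p a single C was the most frequent addition, with 10.3% and 8.74% of reads, near the median of 8.27% over all miRNAs. An added C was read in 18.9% of mml-miR-200a-3p in large intestine 1 and in 7.82% in large intestine 2, so that the paired profiles differed. Additions that equal the next base of the hairpin cannot be seen.

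No change inside the reads could be assigned to mml-mir-200a, mml-mir-429 or mml-mir-141 alone. Under the rule for a significant site (a level of at least 5%, at least 10 changed reads and an adjusted p under 0.05 in a binomial test against an error rate of 0.001), 794 sites in 303 hairpins passed in at least 1 profile. The sites in mml-mir-200a and mml-mir-141 that passed were carried mostly by reads that match both hairpins equally well, whose 3p arms differ by C17A, and mml-mir-429 had none. With 1 mismatch allowed, 92.7% of the reads on mml-mir-200c carried a mismatch, nearly all at the same base. Whether these reads came from mml-mir-200c was not tested, so they are not assigned to it or counted in the levels above. In the other 3 members 3.50% to 9.32% of the reads carried a mismatch.

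The 4 members went up and down together over the profiles. The Pearson r of log2(RPTM + 1) over 12 profiles was 0.99 between mml-miR-200a-3p and mml-miR-429-3p and between 0.84 and 0.96 for the other 5 pairs, as a description of profiles that share depth and tissue. Of 365 other miRNAs, the 5 whose levels followed the mean of the 4 members most closely were mml-miR-10a-3p (r = 0.88), mml-miR-155-5p (0.80), mml-miR-203-3p (0.79), mml-miR-146a-5p (0.74) and mml-miR-142-5p (0.73). mml-miR-10a-3p ran from 0 RPTM in occipital lobe to 31.3 RPTM in kidney 1. mml-miR-155-5p and mml-miR-146a-5p, known from activated immune cells, were highest in large intestine 2 at 381 and 2587 RPTM, the large intestine profile with the lower level of every 3p arm of the family. mml-miR-203-3p and mml-miR-142-5p, the latter a miRNA of blood cells, were highest in lung at 3364 and 2550 RPTM.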

How the data were processed

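The authors sequenced small RNAs on an Illumina HiSeq instrument, filtered reads by the quality of their first bases (score of 30 or above), trimmed adapters and deposited, for each of the 12 profiles, the counts of unique sequences of 18 to 44 bases without normalization. The total was 22118095 to 25579064 reads, so that a read stood for 0.39 to 0.45 RPTM. Hairpins and mature miRNAs were taken from the study's supplementary list, of which 832 hairpins could be read. Its assembly is Mmul_8.0.1, and no genome sequence was used here, so that reads from elsewhere in the genome could not be removed.

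Sequences were compared with the hairpins by Python 3.11.15, numba 0.67.0, numpy 2.4.6, scipy 1.17.1 and pandas 2.3.3. Exact matches to a hairpin counted for a mature miRNA if both ends lay within 2 bases of the annotated ends, and a read that fitted several miRNAs counted for each. Aligned reads for 3' ends and changes could carry 1 mismatch and 2 non-templated bases at the end, with all best alignments kept. The miRNAs tested, those averaging 5 RPTM or more with an SD of at least 1, were fitted in R 4.3.3 with edgeR 4.0.16, in 1 quasi-likelihood fit of 8 tissues over 12 profiles with TMM factors. Tissues with 1 profile were assumed to vary like the 4 pairs, which gave 4 residual degrees of freedom and a prior of 8.63. The SE was derived from the F statistic, and p-values were adjusted by Benjamini-Hochberg over all 371 miRNAs with a threshold of 0.05. Alternatives used limma 3.58.1 and DESeq2 1.42.0, other library sizes, filters, rules of assignment, places for liver and lung, the replicate number as a block and fits without each profile in turn. Shares were compared by an exact permutation test. With 74 of 371 simulated miRNAs changed 8-fold in the epithelial contrast, 100% of them were called, with 2 false calls among 297. Apart from these changes all simulated tissues had the same mean profile, unlike the real ones, and the dispersion was the same throughout. The 2 false calls therefore do not measure the error of the real contrast. Figures were drawn with matplotlib 3.10.9.

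The members, the lists and the tests were chosen with earlier results of these data known. Named miRNAs are all mature miRNAs of the members, those of the cell type lists by their more abundant arm, and the 5 most alike by Pearson r. Replicate numbers were not used as pairs in the main fit. The deviations of same-numbered profiles from their tissue means correlated at -0.14 to 0.15 over the 6 pairs of tissues. The labels do not say whether a number stands for an animal. Such low correlations cannot exclude it, since small differences between animals could be hidden by other spread. A change at 1 base of mml-mir-200c is not reported here.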

Additional observations from a re-analysis of the deposited data

How the results depend on the processing

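The 6 arms of the family stayed higher in the epithelial tissues in all 140 fits of an arm under an alternative, with an adjusted p of at most 0.014; the fit of mml-miR-200c-3p with liver among the epithelial tissues could not be made, since liver had no read of it within 2 bases of both ends, and identical reads gave no value for mml-miR-141-3p, mml-miR-200c-3p and mml-miR-141-5p nor for the shares of clusters and seeds. The count of all miRNAs higher (87) became 6 with limma over tissues and 66 to 91 without single profiles. The count lower (151) became 231 with valid reads as library size, 83 with identical reads, 12 with limma and 108 to 152 without single profiles. With the replicate number as a block in the 8 numbered profiles 66 were higher and 85 lower, against 74 and 91 in the same profiles without the block, and mml-miR-141-3p was then called between kidney and large intestine (adjusted p = 0.025 by edgeR, 0.15 without the block). The sample labels do not say whether a number stands for an animal.

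The number of arms called between kidney and small intestine (3) was 0 with identical reads, where none of the 3 could be fitted, and was 2 to 3 without single profiles; between kidney and large intestine (3) it was 1 with identical reads and 1 to 4 without single profiles. Between kidney and lung (0) it was 1 with valid reads, DESeq2, no filter or identical reads and 0 to 1 without single profiles, between small intestine and lung (4) it was 0 with valid reads, 2 with identical reads and 1 to 5 without single profiles, and between large intestine and lung (3) it was 1 with valid reads and 1 to 5 without single profiles. Against liver the number called was 3 with valid reads or identical reads and 2 to 6 without single profiles in kidney (5), and with identical reads it was 3 in small intestine (6), 3 in large intestine (6) and 1 in lung (3), against 5 to 6, 4 to 6 and 3 to 4 without single profiles. With identical reads mml-miR-141-3p and mml-miR-200c-3p have no reads and mml-miR-141-5p has 1, so that these 3 arms could not be called.

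The difference between intestine and kidney in the share of the chromosome 1 cluster (-20.5 percentage points) kept its sign, at -26.6 to -14.3 without single profiles. That of the seed AACACUG (9.75) was 5.24 to 14.3 without single profiles and reversed to -0.75 as a mean of log2 ratios. The 5p share of mml-mir-200a was 35.7% with identical reads. The 794 sites in all hairpins became 277 with at least 100 changed reads and 341 without non-templated ends. Of the 5 most alike miRNAs, 4 were kept with a pseudocount of 0.1 and 4 with Spearman's rho. The rarity of the 5p arms and of every member in nervous tissue, where most arms had 0 to 3 reads, limits what their values can show.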
